A study of Rattus norvegicus with 8 samples.

Results

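The receptors for progesterone and oestrogen were followed in 8 rat tumours through their genes, Pgr (ENSRNOG00000006831) for the progesterone receptor and Esr1 (ENSRNOG00000019358) for oestrogen receptor alpha. They are 2 of the 23918 genes in the deposited table and were chosen by identifier, as the hormone receptors of the uterine tumour from which the cell line comes. The tumours grew subcutaneously from ELT3-V3 cells in female NOD-scid mice that were 6 weeks old at inoculation. ELT3 is a line from a rat uterine leiomyoma that lacks tuberin, the brake on the kinase complex mTORC1, and it serves as a model of lymphangioleiomyomatosis, a lung disease that affects mainly women. Mice were randomized once tumours measured 150 to 200 mm3, into 4 groups from which 2 tumours each were sequenced. The controls received the vehicle alone. The second group received rapamycin, an mTORC1 inhibitor, at 0.25 mg/kg per day. The third received clorgyline (10 mg/kg per day) together with rapamycin, and the fourth rasagiline (1 mg/kg per day) together with rapamycin. Clorgyline and rasagiline are irreversible inhibitors of monoamine oxidase A and B, respectively. For the combinations the labels name rapamycin without its dose. All tumours come from a single cell line in an immunodeficient host, and no label ties each tumour to a mouse of its own. The p-values below therefore reflect the variation among the sequenced tumours, part of which may be technical.

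Oestrogen receptor alpha and the progesterone receptor are nuclear receptors that bind DNA as dimers when their steroid is present, and each then raises or lowers the transcription of its target genes. In uterine smooth muscle and in breast, Pgr is a classic target of the oestrogen receptor, so that progesterone receptor level is commonly read as a sign of oestrogen action. Leiomyomas are benign tumours of uterine smooth muscle that grow under both hormones.

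Expression is given as TPM, a transcript abundance scaled to a fixed sum per library, which divides the reads of a gene by its length and so lets both receptors be compared with each other. Pgr was the more abundant receptor in each of the 8 tumours. It stood above Esr1 by 2.20 to 31.2 times. Over all 8 tumours the mean was 5.60 TPM for Pgr and 0.960 TPM for Esr1, which lay above the means of 58.5% and 45.2% of the listed genes.

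The sequences in front of each gene are shown because they differ in the promoter letters they hold. Each is the 250 bases upstream of the start listed by RefSeq for the rat assembly GRCr8, on the plus strand. Capitals mark the CCAAT box, the core of the GC box and the TATA box letters on either strand, each spelled out below the sequences. Whether these starts were used in the tumours was not measured.
Pgr, chr8:14354148-14354397: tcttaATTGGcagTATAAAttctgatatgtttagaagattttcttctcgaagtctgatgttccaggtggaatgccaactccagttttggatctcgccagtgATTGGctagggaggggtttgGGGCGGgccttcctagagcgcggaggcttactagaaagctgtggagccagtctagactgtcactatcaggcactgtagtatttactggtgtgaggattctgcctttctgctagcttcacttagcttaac
Esr1, chr1:43641845-43642094: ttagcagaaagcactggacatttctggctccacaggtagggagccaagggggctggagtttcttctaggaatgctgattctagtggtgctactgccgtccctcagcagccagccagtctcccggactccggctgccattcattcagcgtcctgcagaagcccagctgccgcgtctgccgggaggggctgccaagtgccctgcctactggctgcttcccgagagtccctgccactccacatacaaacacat

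The Pgr window held CCAAT, the core of the box bound by the factor NF-Y, at 2 places, both on the opposite strand, with first bases 245 and 149 bases upstream of the start. CCAAT in either direction is present in 34.0% of the 33469 windows of this length. The Pgr window also held GGGCGG, the core of the GC box bound by the factor Sp1, with its first base 129 bases upstream. That hexamer is present in 30.5% of windows. TATAAA stood 237 bases upstream and is present in 12.9% of windows. None of these letters was in the Esr1 window. Neither window held the full oestrogen response element (the arm GGTCA followed, after 3 bases, by its reverse complement), the single arm GGTCA of that element, the arm TGTTCT of the steroid receptor element or the AP-1 element TGANTCA on either strand. Those letters are present in 0.0239%, 35.4%, 17.5% and 6.34% of windows. The single arm lies within the full element, so their shares overlap. The GC content was 46.8% for Pgr and 59.6% for Esr1, against a median of 51.2%.

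Between 12317 and 13270 genes per library reached 1 TPM. TPM values keep no sequencing depth, so no counting interval could be set on either receptor. Rapamycin replicate 2 stood apart from the other libraries: its values differed from the mean of the others by 0.682 (root mean square, log2), against 0.402 to 0.529 for the other 7. The group differences that use it are given with and without it. The identifiers in the table are not paired with symbols in the sources used here. The other receptors, cofactors, hormone target genes and smooth muscle and host cell markers were therefore not analysed here, and the labelled tumour type was not checked against its markers. In bulk tumour RNA, fewer cells that express a receptor and less receptor RNA per cell cannot be told apart, and reads of the mouse host were not separated from those of the rat cells.

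Pgr RNA was about 10 TPM in vehicle tumours and under 5 TPM in every tumour given rapamycin, with or without a second drug. It stood at 11.8 and 9.69 TPM in the controls, at 4.74 and 4.89 TPM after rapamycin, at 4.39 and 2.18 TPM after rapamycin with clorgyline, and at 4.59 and 2.50 TPM after rapamycin with rasagiline. All 6 treated tumours were below both controls. Of the 13686 genes tested, 8.91% had all 6 treated tumours below both controls, so this separation alone is not rare in these libraries. The rapamycin pair was the tightest, with a 1.03-fold range, against 1.22-fold in controls, 2.02-fold with clorgyline and 1.84-fold with rasagiline.

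**Figure D1:**
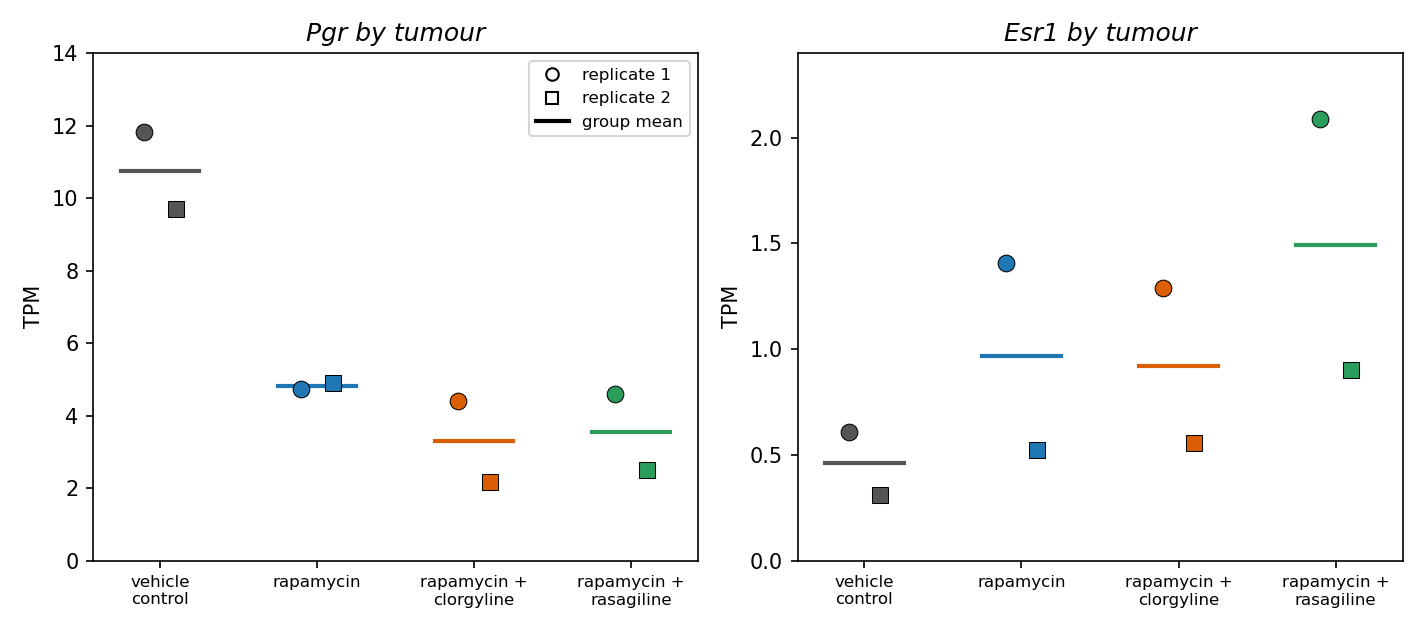
Pgr and Esr1 expression in TPM (linear axes, different ranges) in each of 8 tumours by treatment group; circles and squares are replicates 1 and 2 of a group, which pair nothing across groups, and bars are group means. Pgr lies at 9.69 and 11.8 TPM in the controls and at 2.18 to 4.89 TPM in the treated tumours, while the Esr1 values of the control and treated tumours overlap.

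The comparison that uses all 6 treated tumours, the average of their 3 groups against control, is given first. Pgr averaged 3.88 ± 1.21 TPM (SD, n = 6) in them and 10.8 ± 1.51 TPM (SD, n = 2) in controls, a 2.77-fold lower mean. On the log2(TPM + 1) scale the difference was -1.31 (SE 0.276, 95% interval -1.95 to -0.66). The difference did not pass the threshold of 0.05 (limma, Benjamini-Hochberg adjusted p = 0.0555), which 2.44% of all genes tested did. Its log2 difference was lower than that of 98.9% of genes, where the median gene stood at 0.10. Median rescaling and quantile normalization gave Pgr differences of -1.40 and -1.45. The difference was negative under all 16 alternatives, from -1.51 to -0.84. Since all 6 treated tumours lay below both controls, omitting libraries or changing the pseudocount could not turn its sign. The filters, array weights and the fit without a variance trend left it at -1.31. Only median rescaling and quantile normalization could have turned it. The adjusted p lay on either side of the threshold. With array weights it was 0.0313, where 7.91% of all genes were called. Omitting rapamycin replicate 1 or 2 gave a limma adjusted p of 0.0394 or 0.0433, and omitting control replicate 1 or 2 gave 0.352 or 0.313. The share of all genes called moved with it, to 9.68% and 7.68% without those rapamycin tumours and to 0% without either control.

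**Figure D2:**
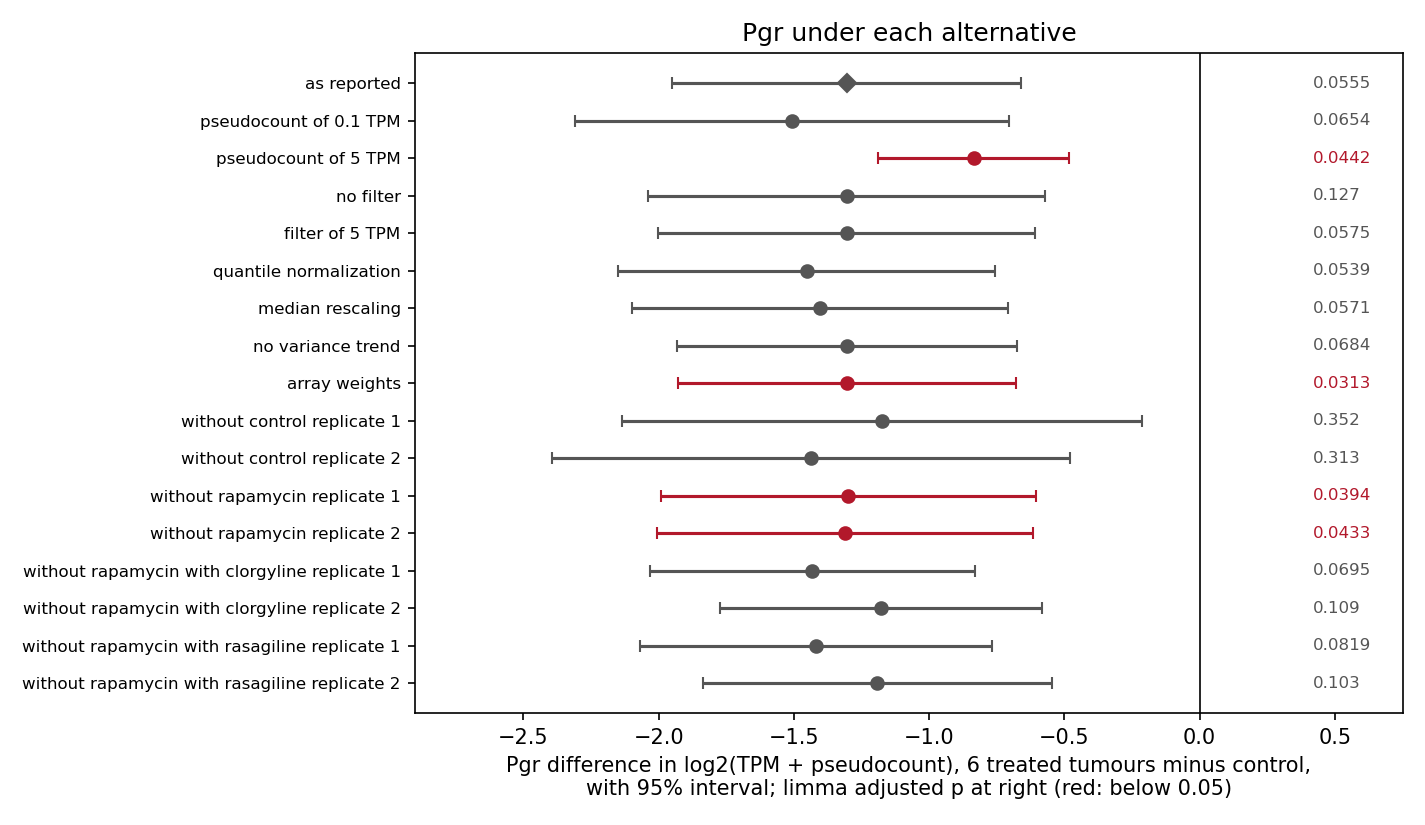
Difference of Pgr between the 6 treated tumours and the controls on the log2(TPM + pseudocount) scale, as reported (diamond) and under each alternative (circles), with unadjusted 95% limma intervals and the adjusted p at right. All values lie between -1.51 and -0.84, and 4 of the 16 alternatives, in red, have an adjusted p below 0.05.

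Taken group by group, Pgr was lower than control after each regimen, and in no group did the difference pass the test. After rapamycin alone it averaged 4.81 ± 0.109 TPM (SD, n = 2), 2.24-fold below control (log2 difference -1.01, SE 0.337, 95% interval -1.80 to -0.22; limma adjusted p = 0.184). Here 0.643% of all genes were called, and 17.6% had both rapamycin tumours below both controls, as Pgr did. Without rapamycin replicate 2 the log2 difference was -1.03 (limma adjusted p = 0.302). With clorgyline added the mean was 3.28 ± 1.57 TPM (SD, n = 2), 3.28-fold below control (log2 difference -1.50, 95% interval -2.29 to -0.71; limma adjusted p = 0.171). In this comparison 0.0146% of genes were called and 19.8% were separated downwards. With rasagiline added the mean was 3.55 ± 1.48 TPM (SD, n = 2), 3.03-fold below control (log2 difference -1.40, 95% interval -2.19 to -0.61; limma adjusted p = 0.0853). The corresponding shares of all genes were 1.57% called and 18.3% separated downwards. These comparisons share their 2 controls, so they are not separate evidence. With array weights the rasagiline difference passed (limma adjusted p = 0.0275), and 10.3% of all genes did so as well. The weights left every group difference as it was and changed only the intervals. They therefore set no tumour below the other of its group.

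Adding a monoamine oxidase inhibitor to rapamycin gave lower Pgr values that did not pass the test. Both clorgyline tumours and both rasagiline tumours lay below both rapamycin tumours, with replicate 1 of each combination close to them. Against rapamycin alone, the log2 difference was -0.49 with clorgyline (95% interval -1.28 to 0.30; limma adjusted p = 0.691) and -0.39 with rasagiline (95% interval -1.18 to 0.40; limma adjusted p = 0.954). Each value rested largely on a single combination tumour: it was -0.11 without clorgyline combination replicate 2 and -0.0552 without rasagiline combination replicate 2. Without rapamycin replicate 2 the values were -0.47 and -0.37. Separation downwards was found in 20.8% and 12.1% of all genes in these comparisons, and 0% and 0.0146% were called. Between the combinations, whose inhibitors were given at different doses, the log2 difference in Pgr was -0.10 (clorgyline minus rasagiline, 95% interval -0.89 to 0.69; limma adjusted p = 0.997), where 0.0219% of genes were called. The sign of that last value was not fixed, since it was 0.0491 after quantile normalization, 0.29 without clorgyline combination replicate 2 and 0.24 without rasagiline combination replicate 1. The intervals allow a difference of more than 1 log2 unit against rapamycin, so they do not show that the regimens acted alike. In the order of the group means, which runs from control through rapamycin and rasagiline to clorgyline, no neighbouring groups differed past the threshold.

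Esr1 RNA was scarce, and its values in control and treated tumours overlapped. It stood at 0.608 and 0.310 TPM in the controls, at 1.41 and 0.524 TPM after rapamycin, at 1.29 and 0.553 TPM with clorgyline, and at 2.09 and 0.899 TPM with rasagiline. The lower rapamycin tumour and the lower clorgyline tumour both lay within the range of the controls. The rasagiline group was the only one with both tumours above both controls. The higher tumour of a group exceeded the lower by 1.96-fold in controls, 2.69-fold after rapamycin, 2.33-fold with clorgyline and 2.32-fold with rasagiline. Esr1 passed the filter on low values through 3 libraries at or above 1 TPM, none of them a control.

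The average of Esr1 was higher after every regimen, but no difference passed the test. Over the 6 treated tumours it was 1.13 ± 0.595 TPM (SD, n = 6), against 0.459 ± 0.210 TPM (SD, n = 2) in controls, a 2.45-fold higher mean. On the log2(TPM + 1) scale, which understates changes of genes this low, the difference was 0.50 (SE 0.318, 95% interval -0.24 to 1.25; limma adjusted p = 0.390). Without rapamycin replicate 2 it was 0.61 (limma adjusted p = 0.253). With a pseudocount of 0.1 TPM it was 1.04, and with 5 TPM it was 0.16, neither of which passed (limma adjusted p = 0.366 and 0.418). Median rescaling and quantile normalization gave 0.47 and 0.32. By group, the log2 difference from control was 0.40 after rapamycin (95% interval -0.51 to 1.31; limma adjusted p = 0.605), 0.38 with clorgyline (95% interval -0.54 to 1.29; limma adjusted p = 0.715) and 0.74 with rasagiline (95% interval -0.17 to 1.65; limma adjusted p = 0.347). Each of these values rested on which tumour of the pair was kept. The rapamycin value was 0.07 without replicate 1 (limma adjusted p = 0.934) and 0.73 without replicate 2 (limma adjusted p = 0.462). The clorgyline value was 0.0977 or 0.66, and the rasagiline value 0.39 or 1.09, without replicate 1 or 2 of the combination. Leaving out control replicate 1 or 2 moved the rapamycin value to 0.55 or 0.25 and the clorgyline value to 0.52 or 0.23. By group, quantile normalization gave 0.37 after rapamycin, 0.18 with clorgyline and 0.41 with rasagiline. Median rescaling gave 0.36, 0.38 and 0.66 for the same groups. The separation of both rasagiline tumours above both controls was shared by 41% of all genes tested.

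Against rapamycin alone, Esr1 differed by -0.02 with clorgyline (95% interval -0.94 to 0.89; limma adjusted p = 0.994) and by 0.34 with rasagiline (95% interval -0.57 to 1.25; limma adjusted p = 0.959). Between the combinations the log2 difference was -0.36 (clorgyline minus rasagiline, 95% interval -1.27 to 0.55; limma adjusted p = 0.997). The shares of all genes called in these comparisons were 0%, 0.0146% and 0.0219%, as above. The values against rapamycin had no fixed sign. With clorgyline the difference was 0.31 without rapamycin replicate 1, -0.35 without rapamycin replicate 2, -0.30 without clorgyline combination replicate 1 and 0.26 without its replicate 2. With rasagiline it was 0.67 without rapamycin replicate 1, 0.00771 without rapamycin replicate 2, -0.0126 when rasagiline combination replicate 1 was omitted and 0.69 when its replicate 2 was. The value between the combinations was -0.64 or -0.0816 when clorgyline combination replicate 1 or 2 was omitted. Omitting rasagiline combination replicate 1 or 2 gave -0.0105 or -0.71. The order of the group means, from control at 0.459 through clorgyline at 0.920 and rapamycin at 0.966 to rasagiline at 1.49 TPM, holds no neighbours whose difference passed the test.

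**Figure D3:**
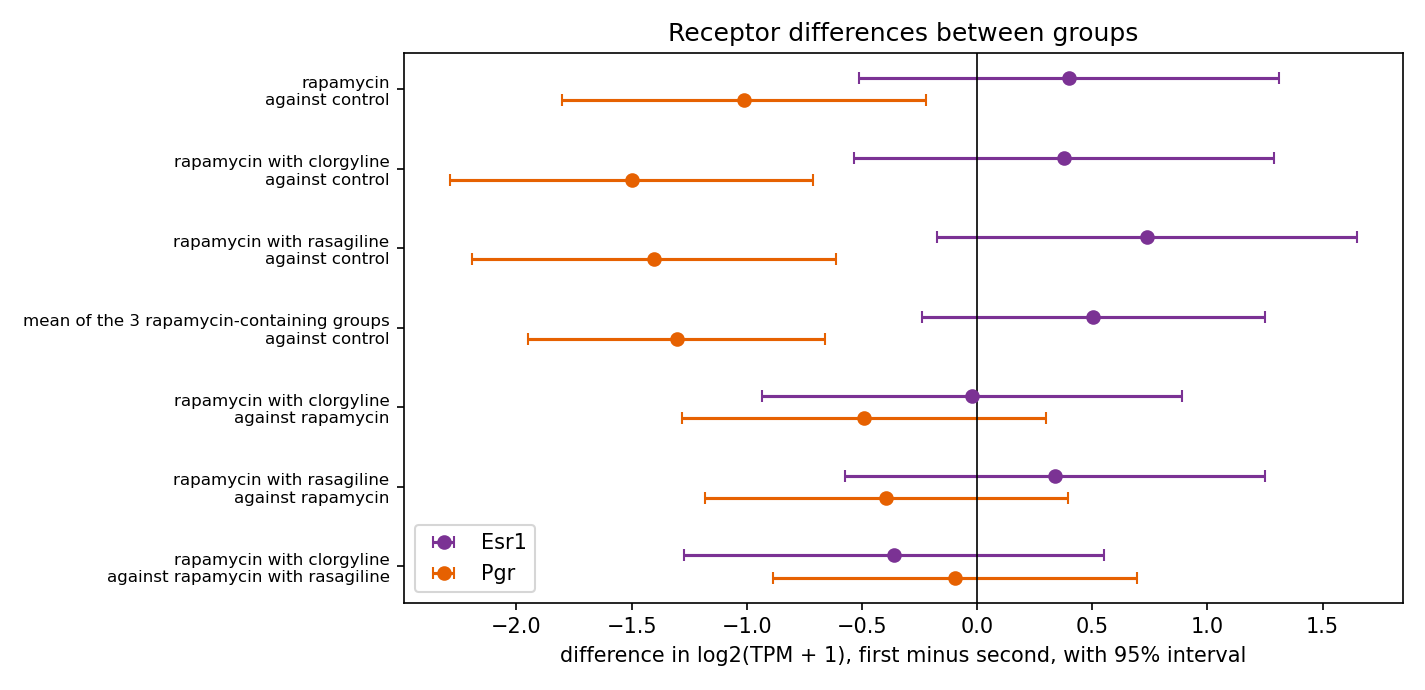
Differences in log2(TPM + 1) for Pgr and Esr1 in 7 comparisons, first group minus second, with 95% limma intervals that are not adjusted for the number of genes. The Pgr intervals lie below 0 in the 4 comparisons with control and cross 0 in the other 3, and every Esr1 interval crosses 0.

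Across both receptors, 0 of 7 comparisons passed the limma test for Pgr and 0 of 7 for Esr1. At an unadjusted p below 0.05 there were 4 for Pgr, those with control, and 0 for Esr1. Against control, that looser cut was passed by 18.7% of all genes after rapamycin alone, 13.5% with clorgyline added, 19.5% with rasagiline added and 21.9% when the treated groups were averaged. Within their groups, the residual spread on the log2 scale was 0.373 for Pgr and 0.407 for Esr1. Among genes within 0.25 log2 units of the same mean level, 65.3% of 907 genes had a smaller spread than Pgr and 59.2% of 1025 genes a smaller spread than Esr1.

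The balance between the receptors was described by the ratio of their TPM in each tumour. Pgr exceeded Esr1 by 19.5 and 31.2 times in the controls and by 3.36 and 9.33 times after rapamycin. With clorgyline the ratios were 3.41 and 3.93, and with rasagiline 2.20 and 2.78. The ratio was thus lower in every treated tumour than in either control, and it was highest among treated tumours in rapamycin replicate 2. Pgr alone was already lower in every treated tumour, as were 8.91% of all genes tested, so the ratio is not a separate result. With 1 TPM added to each gene, the mean log2 ratio was 3.01 ± 0.0231 (SD, n = 2) in controls and 1.20 ± 0.403 (SD, n = 6) in treated tumours, a difference of -1.81. It was -1.96 without rapamycin replicate 2. The size depends on the amount added, and was -2.55 with 0.1 TPM and -0.997 with 5 TPM. The small SD of the controls also depends on it, since their plain ratios were 19.5 and 31.2. The ratio contains Pgr and was read with the levels of both genes known, so no test was made of it.

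**Figure D4:**
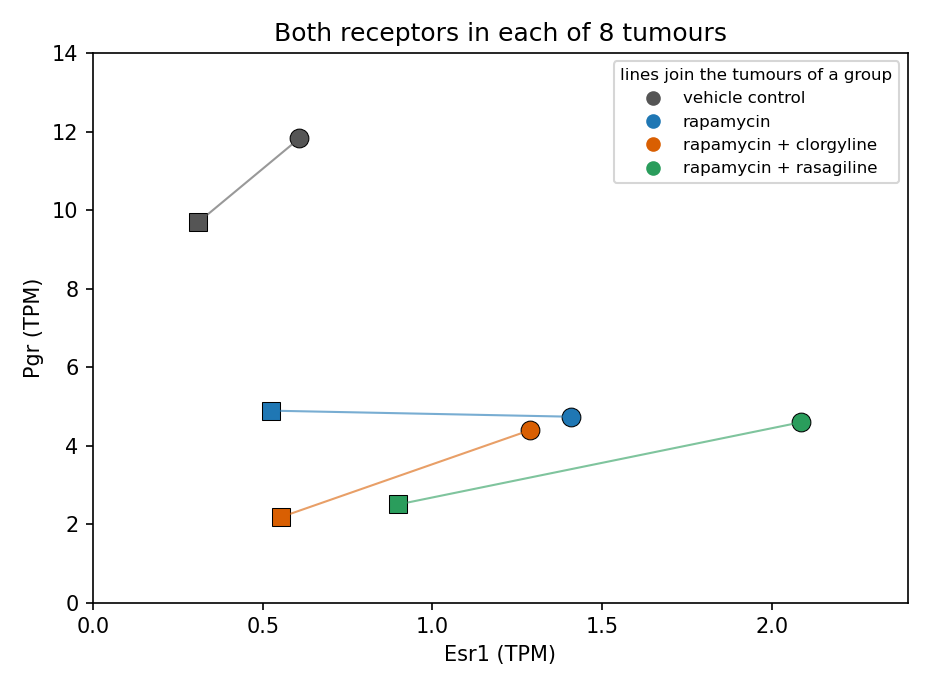
Esr1 (horizontal) against Pgr (vertical), both in TPM, in each of 8 tumours; colours are groups, circles and squares replicates 1 and 2, and lines join the tumours of a group. The controls lie at the upper left, and the treated tumours lie below 5 TPM of Pgr over an Esr1 range from 0.524 to 2.09 TPM.

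The controls stood apart in Pgr, so no correlation was computed over all 8 tumours. Within the 6 treated tumours Pgr and Esr1 on the log2(TPM + 1) scale had a Pearson r of 0.483 (exact permutation p = 0.318, two-sided) and a Spearman rho of 0.086 (exact permutation p = 0.919). The permutations exchanged tumours across regimens, so these p-values do not separate differences between regimens from variation among tumours. Without the 2 tumours farthest from the median of Esr1, which were rasagiline combination replicate 1 and rapamycin replicate 2, r was 0.957 over 4 tumours, so the value rests on which tumours are kept. In the controls and in both combinations the tumour with more Pgr also had more Esr1. In the rapamycin group the tumour with more Esr1 had slightly less Pgr.

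The genes whose levels followed each receptor most closely over the 8 tumours were sought among 10223 genes with a mean of at least 5 TPM, by Pearson r of log2(TPM + 1), as a description. These r values share the separation of controls from treated tumours and the same libraries. For Pgr, ENSRNOG00000017977 had the highest r, 0.988. It stood at 70.9 and 75.4 TPM in the controls and at 49.8 to 59.6 TPM in treated tumours. ENSRNOG00000016128 had the lowest r with Pgr, -0.972, at 7.05 and 7.79 TPM in the controls and 11.7 to 19.4 TPM in treated tumours. For Esr1, ENSRNOG00000008622 had the highest r, 0.964, at 3.11 and 3.37 TPM in the controls and 4.42 to 10.9 TPM in treated tumours. Unlike Esr1, all its treated tumours were above both controls. The share of all genes with that upward separation was not computed. For the comparison of rapamycin with rasagiline against control, 41% of all genes tested were separated upwards. That separation asks for fewer treated tumours, so it is easier to reach. ENSRNOG00000021131 had the lowest r with Esr1, -0.963, at 29.3 and 29.8 TPM in the controls and 21.7 to 30.2 TPM in treated tumours. An r of at least 0.9 in size was reached by 50 genes in the direction of Pgr and 88 against it, and by 12 and 7 genes for Esr1.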

How the data were processed

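RNA from 8 tumours was sequenced from TRIzol extracts and Illumina TruSeq libraries, per the labels' protocols. The values were deposited as TPM, with a sum of 1000000 in each library. Tools listed in the submitters' processing notes are DESeq2, bedtools, SAMtools 0.1.18 and STAR 2.4.0f1, with the build rn6 and no roles. How TPM was computed, with which annotation, and whether mouse reads were removed is not given in the sources used here. Groups came from the sample titles, and replicate numbers only name tumours.

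Genes with at least 1 TPM in at least 2 libraries (13686) were transformed to log2(TPM + 1). limma 3.58.1 in R 4.3.3 fitted 4 group means to all 8 libraries (4 residual degrees of freedom, variances moderated with a trend). The 7 comparisons had two-sided tests, adjusted over all these genes by Benjamini-Hochberg, with a threshold of 0.05. The fit was tested on simulated data. Plots used matplotlib 3.10.9.

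The receptors, lists and tests were chosen with earlier results of these data known. Named genes were both receptors and, for each, the identifiers with the highest and the lowest r. The GRCr8 reference held 0 Ensembl identifiers. The 8 gene lists fixed by symbol could therefore not be matched to the 23918 identifiers with TPM values. They were not analysed here. A planned permutation test of the receptor ratio was not used, since the ratio is a score over chosen genes, and a planned correlation over 8 tumours was replaced by that within 6. Alternatives were pseudocounts of 0.1 and 5 TPM, filters at 0 and 5 TPM, median rescaling, quantile normalization, array weights, no variance trend, fits restricted to the compared groups, and omission of single libraries.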

Additional observations from a re-analysis of the deposited data

How the results depend on the processing

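Pgr was lower than control in all alternatives of the 4 comparisons with control, and Esr1 was higher. For Pgr, whose treated tumours all lay below both controls, only median rescaling and quantile normalization could have turned the sign. For the mean of the 3 groups, Pgr passed the limma test at a pseudocount of 5 TPM (log2 difference -0.84, adjusted p = 0.0442). There 2.32% of all genes were called. It also passed with array weights (-1.31, limma adjusted p = 0.0313, with 7.91% of all genes called). Leaving out single libraries gave -1.44 to -1.17. With array weights the rasagiline combination also passed against control (-1.40). Leaving out either rapamycin tumour also let Pgr pass for the mean of the 3 groups, with adjusted p-values of 0.0394 and 0.0433. No other alternative passed for either gene. Some small differences changed sign. Pgr between the combinations was 0.0491 after quantile normalization, and -0.48 to 0.29 without single libraries. Esr1 with clorgyline against rapamycin was 0.0145 after median rescaling and -0.35 to 0.31 without single libraries (0.31 without rapamycin replicate 1, 0.26 without clorgyline combination replicate 2). Pgr between the combinations was 0.29 without clorgyline combination replicate 2 and 0.24 without rasagiline combination replicate 1. Esr1 with rasagiline against rapamycin was -0.0126 to 0.69 without single libraries (-0.0126 without rasagiline combination replicate 1). The difference in log2 receptor ratio was -2.55 with 0.1 TPM added and -0.997 with 5 TPM added. Both receptors moved with the amount added. For the mean of the 3 groups, Esr1 was 1.04 with 0.1 TPM, 0.50 with 1 TPM and 0.16 with 5 TPM. Pgr was -1.51, -1.31 and -0.84 with the same amounts. The cause of the changes in sign was not tested. Esr1 did not pass the 5 TPM filter. The correlation was not recomputed without single tumours, only without the 2 farthest from the median of Esr1, as given above. Of 245 recomputed values, 231 kept their direction and side of the threshold or moved by less than the spread of the treated tumours. Many of them could not have changed direction. Omitting a library outside a comparison left its difference as it was, as did the filters, array weights and the fit without a variance trend. No difference had passed the threshold as reported, so the count is no measure of robustness. No paired analysis was possible because the labels number no replicates across groups. The unknown depth limits Esr1 most, at 0.310 TPM in its lowest library.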
